A study of Mus musculus with 4 samples.

Results

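The circadian clock genes examined here are Arntl, Clock, Per1, Per2, Per3, Cry1, Cry2, Nr1d1, Nr1d2 and Dbp, 10 of the 22609 gene symbols counted in each hippocampus library. They were taken as a list of symbols, and each was listed under its own symbol and passed the filter on low counts. The series holds 4 RNA-Seq libraries, 2 of FLOX+GCI and 2 of FBN-ARO-KO+GCI, from ovariectomized female mice of between 3 and 5 months. In FBN-ARO-KO mice a Cre recombinase driven by the CaMKIIα promoter removes floxed Cyp19a1, the aromatase gene, in excitatory neurons of the forebrain, so that other cells of the hippocampus keep it, and the FLOX controls carry the floxed allele without that deletion. Ovaries had been removed 1 week before surgery, and both groups then received global cerebral ischemia (GCI), in which the common carotid arteries were clipped for 20 min, with 24 h of reperfusion before tissue collection. No sham library was analysed here, so the values describe the injured hippocampus only. The sources used here do not say that each library is a mouse of its own, and p-values measure the spread between these libraries, which may in part be technical.

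The molecular clock is a feedback loop of transcription with a period of about a day. CLOCK and BMAL1, the proteins of Clock and Arntl, bind E-boxes and switch on the Per and Cry genes, Nr1d1, Nr1d2 and Dbp. The PER and CRY proteins then shut CLOCK and BMAL1 off, while the REV-ERB receptors made from Nr1d1 and Nr1d2 repress Arntl through ROR elements, and DBP acts on D-boxes. In most tissues, Arntl RNA therefore runs in opposite phase to that of Nr1d1 and Dbp, with the Per genes later than Dbp and Cry1 later still. The hippocampus has such a rhythm of its own. Neither the labels nor the methods of the study give the time of day at which mice were operated on or killed.

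Regulatory letters near the start sites of some of these genes are shown first, because the members are compared below by the arm of the loop that they belong to. The windows run from 250 bases before to 50 bases after a RefSeq start site of build GRCm38.p6, 5′ to 3′ on the strand of the gene. Capitals mark an E-box (CACGTG), a variant E-box (CACGTT, here on the reverse strand and so printed AACGTG), a D-box (TTATGTAA or TTACGTAA) or the core of a ROR element (TAGGTCA or TGGGTCA). A CRE (TGACGTCA) was also searched, always on both strands, and the matches shown do not overlap each other. Arntl is shown for its ROR element, Per1 and Cry1 for their E-boxes, Per3 for its pair of D-boxes, Ciart, a further E-box repressor, for its 3 E-boxes, and Dbp because its level differed most between the genotypes among the 10 members.
Arntl, chr7:113207261-113207560, plus strand: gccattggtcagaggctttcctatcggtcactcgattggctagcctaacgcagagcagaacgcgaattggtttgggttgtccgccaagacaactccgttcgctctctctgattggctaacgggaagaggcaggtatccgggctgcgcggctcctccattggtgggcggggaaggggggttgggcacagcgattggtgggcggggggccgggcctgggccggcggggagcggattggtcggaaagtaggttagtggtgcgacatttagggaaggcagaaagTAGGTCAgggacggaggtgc
Per1, chr11:69098699-69098998, plus strand: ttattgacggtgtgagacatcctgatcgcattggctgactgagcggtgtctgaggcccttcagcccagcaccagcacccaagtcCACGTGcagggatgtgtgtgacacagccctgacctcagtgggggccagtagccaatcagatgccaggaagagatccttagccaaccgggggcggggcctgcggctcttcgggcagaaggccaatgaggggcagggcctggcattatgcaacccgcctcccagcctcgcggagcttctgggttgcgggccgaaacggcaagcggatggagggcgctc
Cry1, chr10:85185005-85185304, minus strand: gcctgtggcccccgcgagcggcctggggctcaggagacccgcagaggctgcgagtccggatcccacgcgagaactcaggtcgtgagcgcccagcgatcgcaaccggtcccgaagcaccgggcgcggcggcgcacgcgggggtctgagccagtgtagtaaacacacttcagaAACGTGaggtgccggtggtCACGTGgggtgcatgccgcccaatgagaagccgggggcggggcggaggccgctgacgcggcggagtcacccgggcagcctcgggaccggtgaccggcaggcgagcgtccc
Per3, chr4:151044616-151044915, minus strand: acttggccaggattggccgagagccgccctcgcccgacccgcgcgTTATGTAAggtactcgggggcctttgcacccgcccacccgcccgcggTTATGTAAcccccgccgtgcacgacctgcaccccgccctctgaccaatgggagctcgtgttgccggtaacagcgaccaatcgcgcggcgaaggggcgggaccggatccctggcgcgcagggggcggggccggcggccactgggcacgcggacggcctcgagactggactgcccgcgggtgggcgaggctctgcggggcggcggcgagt
Ciart, chr3:95882179-95882478, minus strand: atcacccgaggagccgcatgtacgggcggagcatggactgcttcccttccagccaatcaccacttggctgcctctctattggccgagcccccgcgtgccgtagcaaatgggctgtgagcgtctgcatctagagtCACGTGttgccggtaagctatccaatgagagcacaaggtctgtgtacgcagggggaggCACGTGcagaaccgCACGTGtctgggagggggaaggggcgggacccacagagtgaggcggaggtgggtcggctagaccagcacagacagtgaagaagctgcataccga
Dbp, chr7:45704997-45705296, plus strand: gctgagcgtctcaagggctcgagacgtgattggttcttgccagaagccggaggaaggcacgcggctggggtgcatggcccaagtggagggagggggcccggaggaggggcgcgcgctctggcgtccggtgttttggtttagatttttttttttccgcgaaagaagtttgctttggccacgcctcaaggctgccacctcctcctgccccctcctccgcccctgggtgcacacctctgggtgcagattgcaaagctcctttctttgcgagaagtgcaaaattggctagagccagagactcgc

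The table of windows held 13 for 9 of the members, all but Per2, and each was found by exact match at a single place in the mm9 genome, the build of the counts. The E-box of Per1 lies at positions -166 to -161 from its first start site, and that of Cry1 at -60 to -55. The ROR element of Arntl lies at positions 31 to 37 after the second of its start sites. The D-boxes of Per3 are at -205 to -198 and at -158 to -151. Of 32851 windows over all genes, 7.15% held an E-box, 4.68% the variant E-box, 1.06% a D-box, 6.45% a ROR element core and 1.79% a CRE. Of the 13 windows of members, 2, 3, 1, 1 and 0 did, in the same order. Cry2 and Nr1d1 each had the variant E-box once. No searched letters were found in the window of Dbp, nor in those of Clock and Nr1d2, which says nothing of sites elsewhere in these genes. A match of letters is a description and not a site of binding.

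All 10 genes were counted well above the limit of detection. The libraries held between 24333396 and 33076795 counts on genes, and the lowest member count was 322. By these totals, 3 counts correspond to between 0.0907 and 0.123 CPM (counts-per-million). All other CPM values are scaled by TMM. The targeted gene Cyp19a1 had 4 and 1 counts in FLOX+GCI, against 2 and 2 in the FBN-ARO-KO+GCI libraries, which are too low to check the labels. Markers of hippocampal neurons such as Prox1, Neurod6 and Wfs1 were present in all libraries. The 8 listed summed to between 8538 and 9303 CPM, mostly from Camk2a (4918 to 5172 CPM) and Snap25 (2587 to 3312 CPM). In the comparison of genotypes below, 3 of the 8 were lower and 1 was higher in FBN-ARO-KO+GCI at an unadjusted p under 0.05. The shares of all genes tested were 7.82% and 8.72%. In whole tissue, fewer cells of a type and less RNA per cell cannot be told apart.

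Per kilobase of its longest coding transcript, Nr1d1 had the highest level, with a mean over the 4 libraries of 46.1 CPM per kb (range 40.8 to 52.3), followed by Cry2 with 42.4 CPM per kb (range 41.2 to 43.8). The ranges of these overlapped, so their order was not resolved. Dbp followed at 28.8 CPM per kb, and its range of 20.1 to 41.8 was the widest among the members on this scale. Nr1d2 and Per1 had nearly equal levels of 17.5 and 17.4 CPM per kb, and the levels of Arntl (13.3 CPM per kb) and Clock (11.1 CPM per kb) also overlapped between libraries. At the low end stood Per2 (6.85 CPM per kb), Per3 (5.18 CPM per kb) and Cry1 (4.68 CPM per kb). Per2 lay above Per3 in every library, with ranges of 5.62 to 7.41 and 4.88 to 5.52, while the ranges of Per3 and Cry1 overlapped.

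The comparison of genotypes addresses whether loss of neuronal aromatase goes along with other levels of clock genes after ischemia. Arntl and Clock, the activators, were higher in both FBN-ARO-KO+GCI libraries than in both FLOX+GCI libraries, and Dbp and Nr1d1 were lower in both. In percent of the FLOX+GCI mean, the differences were 33.8% for Arntl, 31.2% for Clock, -40.1% for Dbp and -13.8% for Nr1d1. None of the 10 genes had an adjusted p under 0.05 over the 14527 genes tested with edgeR's quasi-likelihood test, by which 0.0138% of all genes were called. At an unadjusted p under 0.05 there were 4 members of 10, against 16.5% of all genes tested. Of these, 2 were higher in FBN-ARO-KO+GCI, against 8.72% of all genes, and 2 were lower, against 7.82%. The groups did not overlap for 6 members, which was also so for 51.8% of all genes tested, and that share is therefore near the background. DESeq2 called 3 of the 8 members to which it left an adjusted p, against 5.10% of the 5728 genes to which it left one. The likelihood ratio test of edgeR called 3 of 10, against 2.02% of all 14527 genes tested. They were Arntl, Clock and Dbp with both tools.

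**Figure D1:**
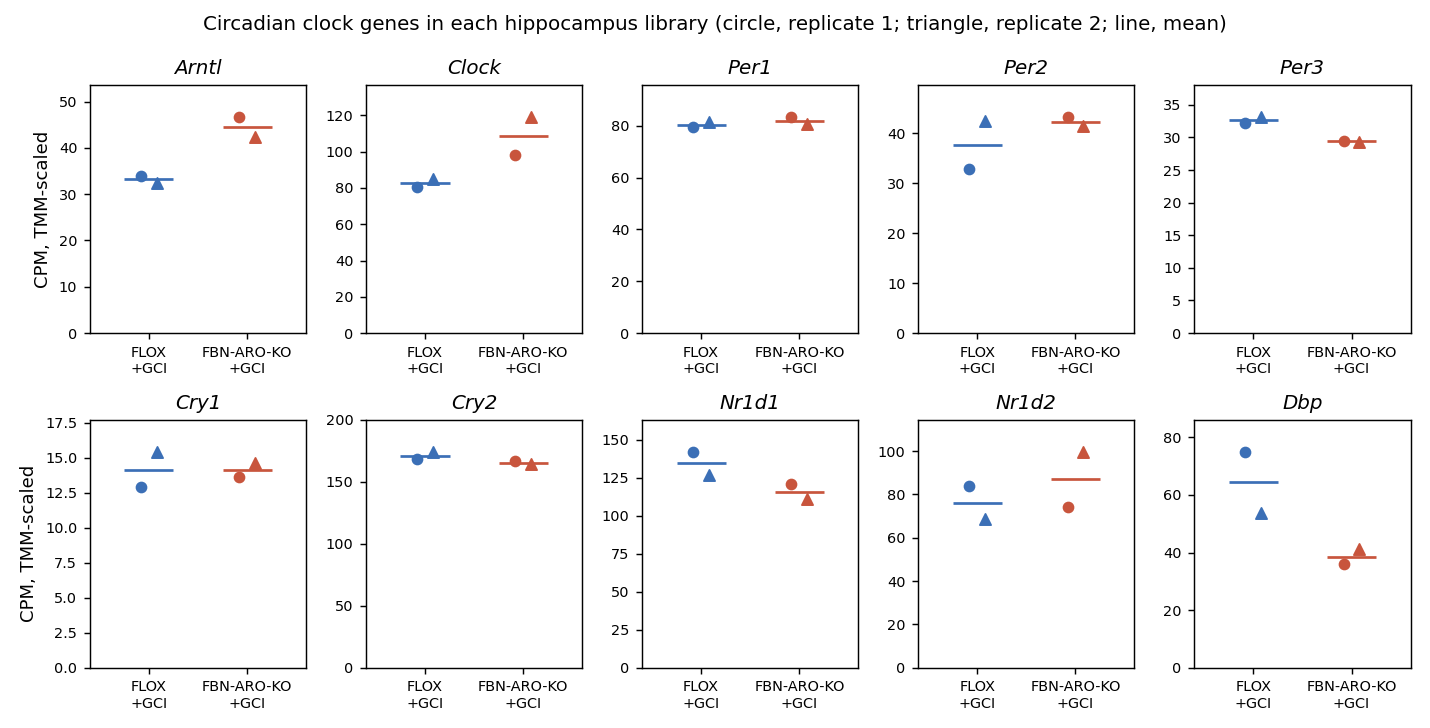
CPM scaled by TMM (y axis, from 0) of each clock gene in the 2 FLOX+GCI and the 2 FBN-ARO-KO+GCI libraries, with a circle for replicate 1, a triangle for replicate 2 and a line for the group mean. Arntl and Clock stand higher in both FBN-ARO-KO+GCI libraries, Dbp and Nr1d1 lower, and the points of Per1, Per2, Cry1 and Nr1d2 overlap between the groups.

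Among the activators, Arntl (mm9 chromosome 7, bases 120350979 to 120457636) encodes BMAL1, the partner of CLOCK. Its CPM in FLOX+GCI was 34.0 for replicate 1 and 32.5 for replicate 2, against 46.6 and 42.4 for those of FBN-ARO-KO+GCI. The difference between the groups was larger than that within either group, the latter being at most 0.14 on the log2 scale. The log2 fold change was 0.42, with a 95% interval of 0.20 to 0.64 (edgeR quasi-likelihood test, adjusted p = 0.238). Clock, on chromosome 5 from 76639992 to 76733817, had 80.5 and 84.9 CPM in FLOX+GCI, against 98.2 and 119 CPM in the FBN-ARO-KO+GCI libraries. Here the FBN-ARO-KO+GCI libraries stood apart from each other by 0.28 on the log2 scale, and the log2 fold change was 0.39, with an interval of 0.15 to 0.63 (edgeR, adjusted p = 0.238). The sum of CPM over the 10 members was between 713 and 743 in the 4 libraries, a sum in which Cry2 and Nr1d1 weigh most.

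Dbp (mm9 chromosome 7, bases 52960458 to 52965525) encodes a transcription factor of the PAR bZIP family through which the clock acts on many of its output genes. In FLOX+GCI it had 1876 and 1325 counts, equal to 74.9 and 53.8 CPM, against 1192 and 1206, equal to 36.0 and 41.2 CPM, in the FBN-ARO-KO+GCI libraries. Both FBN-ARO-KO+GCI libraries were below both FLOX+GCI libraries, although FLOX+GCI replicate 2 was itself 0.48 lower than replicate 1 on the log2 scale. The log2 fold change was -0.74, or 1.67-fold lower, with a 95% interval of -1.11 to -0.37 (edgeR, adjusted p = 0.238). Without FLOX+GCI replicate 2, it was -0.96 and passed the threshold (edgeR, adjusted p = 0.000665), and without FLOX+GCI replicate 1 it was -0.48 and did not (edgeR, adjusted p = 0.0889). Over the 13 alternatives the log2 fold change of Dbp lay between -0.96 and -0.43 and its adjusted p between 0.000665 and 0.815. Dbp overlaps Sphk2 on the opposite strand in the annotation, and whether reads were counted by strand is not given in the sources used here. Sphk2 itself had a mean of 37.4 CPM in FLOX+GCI, against 38.2 CPM in FBN-ARO-KO+GCI, with a log2 fold change of 0.03.

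The REV-ERB genes differed from each other. Nr1d1 (mm9 chromosome 11, bases 98629246 to 98636647) had 142 and 127 CPM in FLOX+GCI, against 121 and 111 CPM in the FBN-ARO-KO+GCI libraries. The groups did not overlap, but the nearest libraries of the groups, at 127 and 121 CPM, lay closer together than the libraries within either group, and the log2 fold change was -0.21, with an interval of -0.42 to -0.01 (edgeR, adjusted p = 0.284). Without FLOX+GCI replicate 1 it was -0.13, with no unadjusted p under 0.05, and without FBN-ARO-KO+GCI replicate 2 it was -0.15, likewise. Leaving out either of the other libraries gave -0.30 and -0.28. Nr1d1 overlaps Thra, the gene for a thyroid hormone receptor, on the opposite strand. Thra was higher by 0.11 on the log2 scale in FBN-ARO-KO+GCI, with an interval of -0.04 to 0.26. Nr1d2, on chromosome 14 from 19036568 to 19071641, had 84.0 and 68.6 CPM in FLOX+GCI, against 74.4 and 99.6 CPM in the FBN-ARO-KO+GCI libraries. Its groups overlapped, its highest and its second lowest values were both in FBN-ARO-KO+GCI, and the interval of its log2 fold change ran from -0.17 to 0.54.

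The repressors of the Per and Cry families showed smaller differences than Dbp or Arntl. Per1 (mm9 chromosome 11, bases 68908719 to 68923462), which also responds to glucocorticoids and to neuronal activity, had 79.4 and 81.5 CPM in FLOX+GCI, against 83.3 and 80.8 CPM in the FBN-ARO-KO+GCI libraries, which on the log2 scale are the tightest values among the members. Its log2 fold change was 0.03, with an interval of -0.14 to 0.20, which lies below the 0.42 of Arntl. The interval of Arntl, 0.20 to 0.64, starts about where that of Per1 ends. The value of Per1 was -0.01 with library totals in place of TMM, and 0.22 with the offset for GC content and length described below. Per2 (mm9 chromosome 1, bases 93312561 to 93355907) had 32.8 CPM in FLOX+GCI replicate 1, while the other libraries lay between 41.5 and 43.2 CPM. Its low value thus belonged to 1 library, and the groups overlapped. Per3 (mm9 chromosome 4, bases 150377761 to 150418774) had 32.3 and 33.1 CPM in FLOX+GCI, against 29.5 and 29.3 CPM in the FBN-ARO-KO+GCI libraries. These groups did not overlap, but the difference was small, with a log2 fold change of -0.15 and an interval of -0.37 to 0.06 (edgeR, adjusted p = 0.408). Cry1 (mm9 chromosome 10, bases 84594447 to 84647799) had 12.9 and 15.4 CPM in FLOX+GCI, against 13.6 and 14.6 CPM in the FBN-ARO-KO+GCI libraries, so that both FBN-ARO-KO+GCI values fell between the FLOX+GCI values. Cry2 (mm9 chromosome 2, bases 92243803 to 92274200) had 168 and 174 CPM in FLOX+GCI, against 167 and 164 CPM in the FBN-ARO-KO+GCI libraries, with a log2 fold change of -0.05 and an interval of -0.21 to 0.11, and 0.07 with the offset for GC content and length described below. Cry2 overlaps the noncoding RNA D930015M05Rik on the opposite strand, which was not among the genes tested.

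The differences between genotypes moved with the base composition of the transcripts. Across the 14004 tested genes with a known GC content, the log2 fold change had a Spearman's rho of -0.55 with GC content, a description across genes of the same 4 libraries. Among the members, Dbp (61.7% GC), Per1 (59.4%) and Nr1d1 (56.8%) are rich in GC, while Clock (41.6%) and Nr1d2 (41.8%) are poor in it and Arntl (48.1%) lies between. With the GC content and transcript length trend of every library removed, the log2 fold change of Arntl was 0.41, with an interval of 0.21 to 0.61, close to its uncorrected value. That of Dbp was -0.43, with an interval of -0.83 to -0.04, and that of Clock 0.19, with an interval of 0.03 to 0.35. The difference of Nr1d1 was -0.05, with an interval of -0.22 to 0.12, and its groups then overlapped. The difference of Per1 was 0.22, with an interval of 0.06 to 0.38, farther from 0 than without the offset. At an unadjusted p under 0.05 there were again 4 members, Arntl, Clock, Dbp and Per1, against 11.4% of all genes, and none had an adjusted p under 0.05 (edgeR, smallest adjusted p = 0.333).

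**Figure D2:**
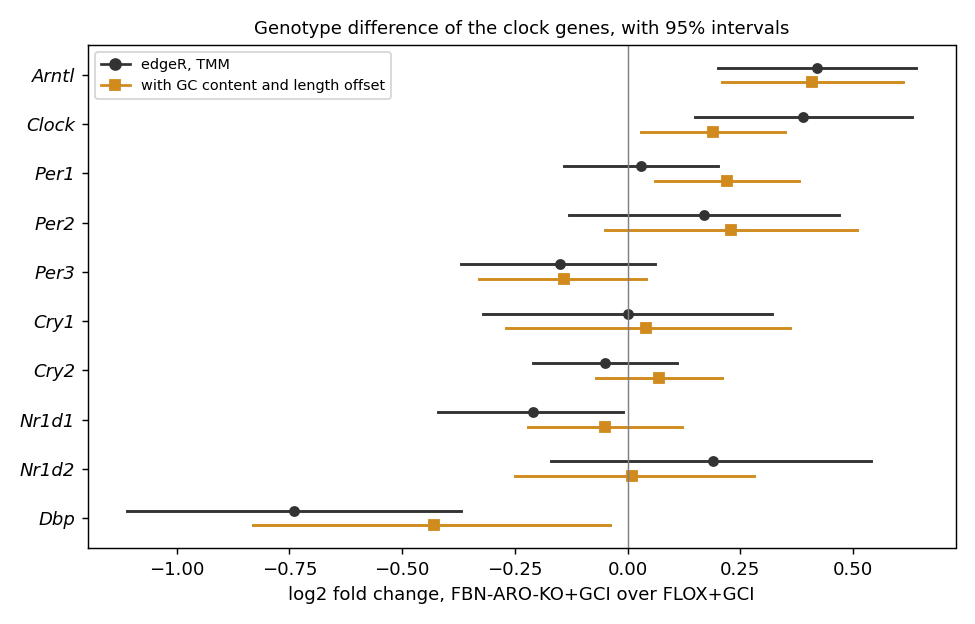
Log2 fold change of each clock gene in FBN-ARO-KO+GCI over FLOX+GCI (x axis) with its 95% interval, from the edgeR fit (black circles) and from the fit with an offset for GC content and transcript length (orange squares). Arntl keeps its value (0.42 and 0.41), Dbp (-0.74 and -0.43) and Clock (0.39 and 0.19) lie closer to 0 with the offset, Nr1d1 (-0.21 and -0.05) no longer has an interval on a single side of 0, and Per1 (0.03 and 0.22) lies farther from it.

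Genes of opposite phase were next set against each other within each library, which does not depend on the scaling between libraries. These ratios use raw counts without the offset, so differences tied to base composition remain in them. With the offset, the log2 fold changes were -0.43 for Dbp, -0.05 for Nr1d1, 0.22 for Per1 and 0.23 for Per2, against 0.41 for Arntl. Without it they were -0.74, -0.21, 0.03 and 0.17, against 0.42 for Arntl. The ratio of Dbp to Arntl counts in FLOX+GCI was 2.20 for replicate 1 and 1.66 for replicate 2, against 0.772 and 0.972 for those of FBN-ARO-KO+GCI. Dbp thus had more counts than Arntl in both FLOX+GCI libraries and fewer in both FBN-ARO-KO+GCI libraries (mean 1.93 ± 0.384 and 0.872 ± 0.142, SD, n = 2 each). Counts also depend on transcript length, which is 1789 nt for Dbp and 2925 nt for Arntl. Per kilobase, Dbp lay above Arntl in every library, with ranges of 20.1 to 41.8 and 11.1 to 15.9 CPM per kb. The ratio of Nr1d1 to Arntl was 4.18 and 3.92 in FLOX+GCI, against 2.60 and 2.62 in the FBN-ARO-KO+GCI libraries. That of Per1 to Arntl was 2.33 and 2.51 against 1.79 and 1.91, and it too did not overlap. Per1 itself had a log2 fold change of 0.03 and groups that overlapped, and the ratios to Arntl all share the Arntl counts. As single genes, 51.8% of all genes tested had groups that did not overlap. The ratio of Per2 to Arntl did not separate the groups in this way, at 0.964 and 1.31 in FLOX+GCI, against 0.928 and 0.979 in the FBN-ARO-KO+GCI libraries. Per2 counts relative to those of Dbp, an earlier gene of the same arm, were 0.438 and 0.791 in FLOX+GCI, against 1.20 and 1.01 in the FBN-ARO-KO+GCI libraries.

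As a description over both arms of the loop, Cry1 and Cry2 left out, a difference was taken in each library. It was the mean log2 CPM of Per1, Per2, Per3, Nr1d1, Nr1d2 and Dbp minus that of Arntl, Clock and Npas2. The values were 0.57 and 0.45 in FLOX+GCI, against 0.08 and 0.07 in the FBN-ARO-KO+GCI libraries. The group means differed by -0.44 on the log2 scale. Dbp and Arntl alone differed by -1.14, and without the Per genes the difference was -0.58. With Cry1 added to the repressor side it was -0.43. Dbp and Arntl had the smallest unadjusted p of the members (edgeR), and the Per genes had smaller differences than either. The values of -1.14 and -0.58 thus follow in part from the choice of genes. With the trend over GC content and length removed, the difference over the genes first named was -0.29. The pattern was not uniform over the genes of the repressor side, since Dbp, Nr1d1 and Per3 were lower in both FBN-ARO-KO+GCI libraries, and Per1, Per2 and Nr1d2 were not. The log2 fold changes were -0.74 for Dbp, -0.21 for Nr1d1 and -0.15 for Per3, against 0.03, 0.17 and 0.19 for Per1, Per2 and Nr1d2. Those of Arntl, Clock and Npas2 were 0.42, 0.39 and 0.17, and no difference without Dbp was taken. Because no time of day is given for any library, a difference in sampling time and a difference by genotype cannot be told apart in these libraries, and the part of sampling time was not tested.

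**Figure D3:**
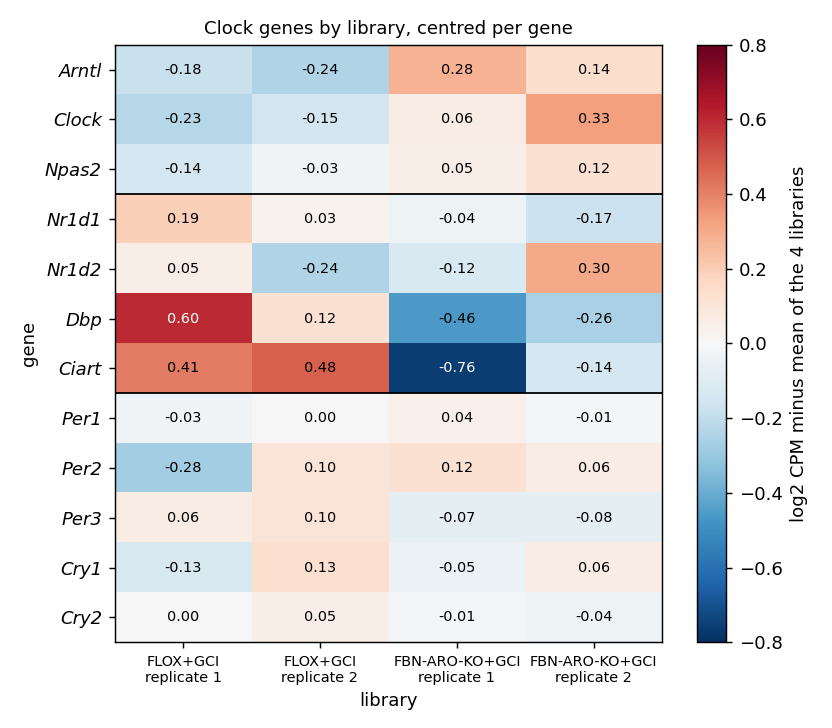
Log2 CPM of each gene minus its mean over the 4 libraries (colour and printed value) for the activators (top block), the REV-ERB and output genes with Ciart (middle block) and the Per and Cry genes (bottom block), 1 column per library. Arntl, Clock and Npas2 are below 0 in both FLOX+GCI columns and above 0 in both FBN-ARO-KO+GCI columns, Dbp, Nr1d1 and Ciart are the other way round, and Nr1d2 (0.05, -0.24, -0.12 and 0.30) and Per2 (-0.28, 0.10, 0.12 and 0.06) follow neither.

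A further 22 genes of the clock pathway, other activators, receptors, PAR bZIP factors, repressors, kinases, ubiquitin ligase subunits and clock-controlled enzymes, were all tested. None had an adjusted p under 0.05 with edgeR. With an unadjusted p under 0.05, 6 were higher and 1 was lower in the FBN-ARO-KO+GCI libraries, against 8.72% and 7.82% of all genes tested, and their median log2 fold change was 0.13, against -0.01 over all genes tested. The groups did not overlap for 12 that were higher, where all genes gave 25.9%, and for 3 that were lower, where all genes gave 25.8%.

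Ciart, counted under its older symbol Gm129, was the 1 lower gene. It encodes a repressor that CLOCK and BMAL1 switch on, and its window holds E-boxes at -116 to -111, -58 to -53 and -44 to -39. Its CPM was 9.70 and 10.2 in FLOX+GCI, against 4.31 and 6.62 in the FBN-ARO-KO+GCI libraries. Both FBN-ARO-KO+GCI values were below both FLOX+GCI values, with a log2 fold change of -0.87 and an interval of -1.38 to -0.35 (edgeR, adjusted p = 0.238). With the offset for GC content and length it was -0.78, with an interval of -1.31 to -0.25. Another gene, C920021L13Rik, covers Ciart on the opposite strand in the annotation and was not among the genes tested.

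Among the higher genes, Nfil3, the repressor that competes with DBP at D-boxes, had 12.2 and 13.7 CPM in FLOX+GCI, against 18.8 and 15.4 CPM in the FBN-ARO-KO+GCI libraries. Its log2 fold change of 0.40 was thus opposite in sign to that of Dbp. Wee1, a clock-controlled kinase of the cell cycle, had a log2 fold change of 0.45, and Nampt, the enzyme of NAD synthesis, had 0.37. Bhlhe40, an E-box repressor, had 0.20, and Fbxw11, a ubiquitin ligase subunit for PER, had 0.19. With the offset for GC content and length the log2 fold changes were 0.53 for Nfil3, 0.52 for Wee1, 0.17 for Nampt, 0.20 for Bhlhe40 and 0.15 for Fbxw11.

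Among those with no unadjusted p under 0.05, Npas2, the paralog of Clock, had 30.3 and 32.8 CPM in FLOX+GCI, against 34.7 and 36.4 CPM in the FBN-ARO-KO+GCI libraries. Its groups did not overlap, and the log2 fold change was 0.17, with an interval of -0.05 to 0.39. Of the PAR bZIP factors other than Dbp, Tef (log2 fold change 0.10, interval -0.07 to 0.26) and Hlf (0.23, interval -0.05 to 0.51) had values on the other side of 0 from Dbp, and their levels of between 467 and 522 CPM for Tef and between 163 and 229 CPM for Hlf were well above that of Dbp before length is taken into account. The groups of Tef did not overlap, and those of Hlf did. Groups also did not overlap, among others, for Csnk1d (0.06), Gsk3b (0.17) and Btrc (0.20), which were higher, and for Bhlhe41 (-0.13) and Usp2 (-0.14), which were lower, values given as log2 fold changes. The receptors Rora and Rorb, which act on the ROR element of Arntl against the REV-ERBs, had intervals of -0.43 to 0.56 and of -0.53 to 0.37.

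**Figure D4:**
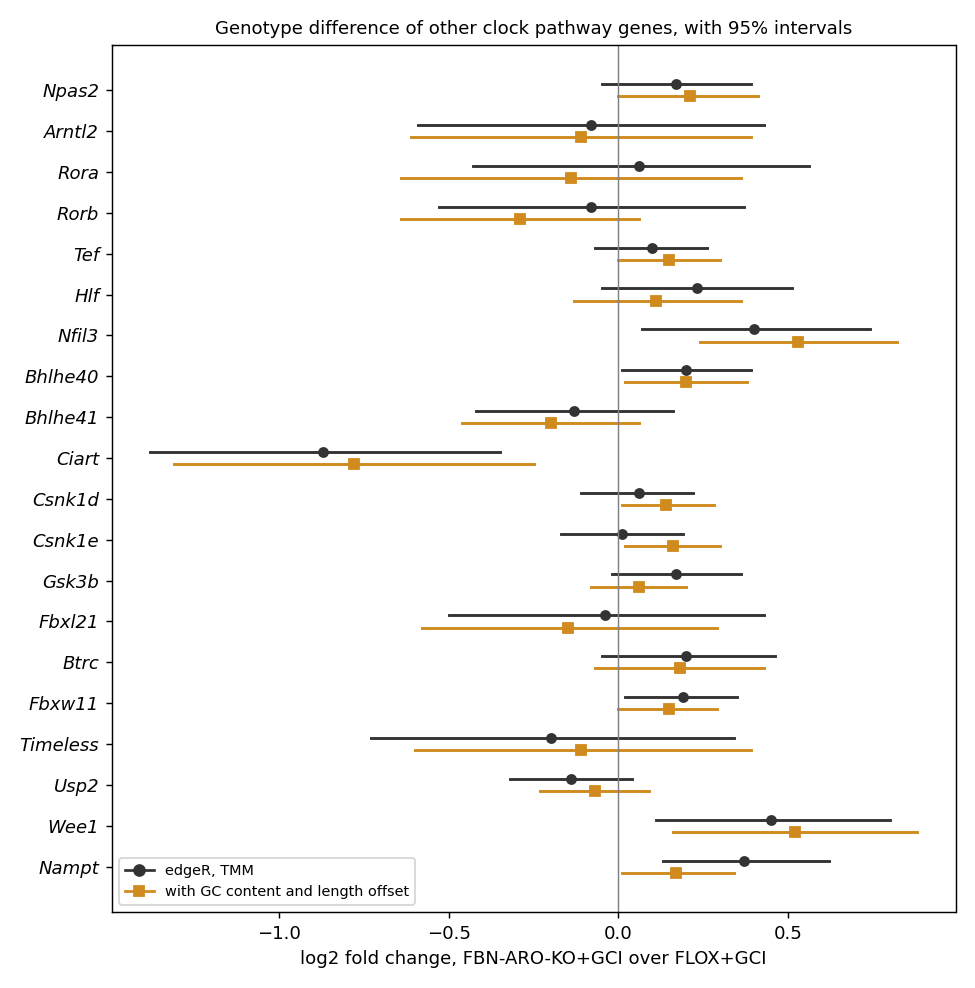
Log2 fold change in FBN-ARO-KO+GCI over FLOX+GCI (x axis) with its 95% interval for other clock pathway genes, from the edgeR fit (black circles) and with the offset for GC content and transcript length (orange squares). Among the genes drawn, Ciart (-0.87) lies farthest below 0 and Wee1 (0.45) and Nfil3 (0.40) farthest above it.

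Clock genes also answer to signals other than the loop itself, and lists of such genes were read beside them. Of 14 glucocorticoid target genes, Per1 among them, 4 were higher and 0 lower at an unadjusted p under 0.05, against the same 8.72% and 7.82% of all genes, with a median log2 fold change of 0.17. The smallest p values belonged to Fkbp5, a chaperone of the receptor, with 102 and 116 CPM in FLOX+GCI against 146 and 147 CPM in FBN-ARO-KO+GCI, and to Zbtb16, with 76.9 and 84.5 against 101 and 110 CPM. Of 10 activity-regulated genes, 9 had a log2 fold change below 0, as did 7458 of all 14527 genes tested. At an unadjusted p under 0.05, 4 were lower, against 7.82% of all genes, and the median was -0.32. The smallest p values here were those of Junb, with a log2 fold change of -0.76, and Npas4, with -1.02. Both are rich in GC (62.6% and 56.7%), and values with the offset for GC content and length are not given for these lists. None of the genes of these lists had an adjusted p under 0.05 with edgeR, and their part in the values of the clock genes was not tested.

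Markers of other tissue were present at low levels. The 4 striatum markers summed to 27.8 and 28.4 CPM in FLOX+GCI and to 20.1 and 22.7 CPM in FBN-ARO-KO+GCI, and 3 of them were lower without overlap, against 25.8% of all genes. Choroid plexus markers summed to between 46.7 and 67.3 CPM and thalamus markers to between 32.8 and 39.1 CPM. Blood markers summed to between 1.84 and 4.15 CPM, all of it from Alas2. Of the 6 choroid plexus markers, 2 had a log2 fold change below 0 and 4 above it, with a median of 0.05. Their groups did not overlap for 1 lower and 1 higher marker. The lower was Ttr, at 26.5 and 21.9 CPM in FLOX+GCI, against 8.93 and 15.6 CPM in the FBN-ARO-KO+GCI libraries. Of the 4 thalamus markers, 2 were lower and 2 higher, with a median of 0.04. Among them Lef1 had a log2 fold change of -0.67 and an interval of -1.20 to -0.14. Alas2, the only blood marker with any counts, had -0.81 and an interval of -1.42 to -0.20. None of these had an adjusted p under 0.05 with edgeR, and they were named after their values were seen. None of the striatum, choroid plexus or thalamus markers was at 0 in every library, while 3 of the 4 blood markers were. These were the globin genes Hba-a1, Hbb-b1 and Hbb-b2. Reads without a unique position were not counted on genes, so these zeros are not a measure of blood, and their cause was not tested. Endothelial markers summed to between 80.9 and 139 CPM, astrocyte markers to between 1362 and 1823 CPM, oligodendrocyte markers to between 3447 and 4064 CPM, and microglia markers to between 195 and 229 CPM. The part of tissue composition in the values of the clock genes was not tested.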

How the data were processed

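Total RNA of the hippocampus was sequenced as 50 nt single-end reads. Per the labels, the authors aligned the reads to mm9 with TopHat2 2.0.8b, and the deposited values are the raw HTSeq counts for each gene symbol. The strand setting, the HTSeq version and the annotation release are not given in the sources used here. The rows for unassigned reads (between 7.96% and 8.70% of the sum of a file for no feature and between 35.1% and 36.5% for reads without a unique position) were left out.

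Genotypes were compared over 14527 genes in edgeR 4.0.16 (R 4.3.3) by its quasi-likelihood test, after TMM normalization and filterByExpr (minimum count 10), with Benjamini-Hochberg adjustment at 0.05. Standard errors were approximated from the F statistic, and 95% intervals from the total degrees of freedom of the test. With 2 libraries a group, the smallest two-sided p that an exact permutation test allows is 0.333. The libraries of a group were not duplicates (chi-square per degree of freedom 9.33 and 11.0). Lengths, GC content and positions came from GENCODE M1 (NCBIM37, the same build as mm9), where 20245 of 22609 symbols had a coding transcript. Promoter windows came from RefSeq (GRCm38.p6).

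Alternatives were DESeq2 1.42.0, RLE size factors, library totals, other filters, a block for replicate number, edgeR's likelihood ratio test, an offset for GC content and length (natural splines with 5 degrees of freedom for each), and each library left out. The procedure was tested on simulated data. Members, lists and alternatives were chosen with earlier results of these data known. All members are named, and of the other clock pathway genes those with an unadjusted p under 0.05 or with groups that do not overlap (Hlf, Rora and Rorb were added after their values were seen), the 2 genes with the smallest p of each further list, and the 3 genes most like Arntl and Dbp. Some genes that the rule names are not reported here.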

Additional observations from a re-analysis of the deposited data

How the results depend on the processing

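Arntl, Clock, Dbp, Nr1d1 and Per3 kept their direction in all 13 alternatives. Arntl was called with DESeq2 (log2 fold change 0.42) and the likelihood ratio test (0.42), Clock with the same tools (0.40 and 0.39), and Dbp with DESeq2 (-0.73), the likelihood ratio test (-0.74), the replicate block (-0.72) and without FLOX+GCI replicate 2. Genes called over all tested, 2 in the comparison as reported, were 292 with DESeq2, 5 with every gene of at least 1 count, 294 with the likelihood ratio test, 184 with the replicate block and 1 with the block and the offset for GC content and length. Clock genes called, 0 as reported, were 3, 0, 3, 1 and 0 in the same order. With 1 library left out, where the lone library is assumed to vary like the other group, between 0 and 193 genes and between 0 and 1 clock genes were called, and Arntl lay between 0.35 and 0.49, Clock between 0.25 and 0.52 and Dbp between -0.96 and -0.48. For same-numbered libraries the labels give only the number, and whether they were handled together is not stated in the sources used here. Their deviations from the group means correlated at 0.129 across genes. The difference over genes of opposite phase was -0.29 with the offset and -0.43 with Cry1 on the repressor side. It was -0.58 without the Per genes and -1.14 for Dbp and Arntl alone, values that follow in part from the choice of genes. No difference without Dbp was taken.

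Values near 0 changed sign. Per1 was -0.01 with library totals only, and Cry2 was 0.07 with the offset, with or without the block. Cry1 was 0.00 with DESeq2, with every gene of at least 1 count and with the block, 0.04 with the offset and 0.05 with the offset and block, and lay between -0.12 and 0.13 with 1 library left out. In the same way Per2 lay between -0.00 and 0.37 and Nr1d2 between -0.04 and 0.38. The cause of these changes was not tested. The members had at least 322 counts in every library, and DESeq2 left Per3 and Cry1 without an adjusted p.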

Other observations

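Temperature-responsive genes, some of which cycle with body temperature, were read as a list of 8. With an unadjusted p under 0.05, 4 were higher and 1 was lower in the FBN-ARO-KO+GCI libraries, against 8.72% and 7.82% of all genes tested, none with an adjusted p under 0.05 (edgeR), and the median log2 fold change was 0.24. Cirbp, a cold-inducible RNA-binding protein, had the smallest p, with 49.5 and 45.8 CPM in FLOX+GCI, against 30.3 and 27.9 CPM in the FBN-ARO-KO+GCI libraries. Its groups did not overlap, and the log2 fold change was -0.71, with an interval of -0.94 to -0.49 (edgeR, adjusted p = 0.173). Dnajb1, a heat shock cochaperone, was next and had 67.1 and 65.2 CPM in FLOX+GCI, against 79.3 and 82.1 CPM in the FBN-ARO-KO+GCI libraries, for a log2 fold change of 0.29. Of the 8 genes, 6 had a higher and 2 a lower level in FBN-ARO-KO+GCI by log2 fold change. Groups were lower without overlap, as for Cirbp, for 25.8% of all genes tested, and a link of these genes to the clock genes was not tested.

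The tested genes whose profile over the 4 libraries was most like that of Arntl, by the root mean square difference of centred log2 CPM, were Armc2 (0.016), Hmgn5 (0.016) and Pip5k1b (0.021). For Dbp they were Psmb9 (0.047), 4921507P07Rik (0.052) and Crhr2 (0.057). These genes had low levels, at 0.875 to 1.92, 0.332 to 0.718 and 1.06 to 2.12 CPM in that order. Dbp had 36.0 to 74.9 CPM. With 4 libraries and 14527 genes such likeness is a description only.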
